A study of Mus musculus with 13 samples.

Results

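Spp1, Gpnmb, Lgals3, Igf1, Fabp5, Plin2 and Plin3 are genes that microglia and other macrophages raise when they take up and store lipid or respond to plaques, and they were read by exact gene symbol from a table of 20971 genes. All 7 were in the table and all 7 passed the filter on low values, which kept 13343 genes. RNA from the cortex of 6-month-old C57BL/6 mice was sequenced in 7 APPPS1;Apoe-/- libraries and 6 APPPS1 libraries, counted as separate mice in the series' design. By their genotype labels both groups carry the APPPS1 transgenes, mutant human APP and presenilin 1. Both are under the mouse Thy1 promoter, which is active in neurons. There is thus no group labelled as free of amyloid transgenes to compare with. The APPPS1;Apoe-/- group lacks the gene for apolipoprotein E in every cell of the body. The question was how loss of this lipid carrier alters gene expression in cortex with amyloid plaques.

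Osteopontin, the product of Spp1, is a secreted glycoprotein that binds integrins and CD44. Gpnmb encodes a transmembrane glycoprotein of lysosome-rich phagocytes, and Lgals3 encodes galectin-3, a lectin that binds galactosides at the cell surface and on damaged lysosomes. Igf1 encodes insulin-like growth factor 1, which acts through the receptor encoded by Igf1r. Fabp5 encodes a cytosolic fatty acid carrier, and Plin2 and Plin3 encode perilipins, proteins that coat lipid droplets. On mm10, GENCODE places Spp1 at chr5:104435118-104441050, Gpnmb at chr6:49036546-49070929, Lgals3 at chr14:47367751-47386160, Igf1 at chr10:87858265-87937042 and Fabp5 at chr3:10012548-10016607, all on the plus strand. Plin2 lies at chr4:86648386-86670060 and Plin3 at chr17:56277476-56292873, both on the minus strand, and all 7 are protein-coding. None of the 7 genes is restricted to microglia: Fabp5 and the perilipins are used by many brain cells, and Igf1 and Spp1 also by some neurons.

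Levels are in RPKM, read numbers scaled to gene length and to the mapped reads of the library. A log2 change is the group mean of log2(RPKM + 0.5) in APPPS1;Apoe-/- less that in APPPS1, a scale on which changes of genes with few reads come out too small. A gene was called at an adjusted p under 0.05 in limma over all 13343 genes. Depth was 18455493 to 34538031 alignments for APPPS1;Apoe-/- and 28402328 to 77005806 for APPPS1 libraries, so depth and genotype are partly confounded. Apoe itself was at 4.01 to 6.35 RPKM where the labels say it was deleted and at 463 to 670 RPKM in APPPS1 mice. App, whose level may include reads of the human transgene, was under 150 RPKM in 2 libraries, APPPS1;Apoe-/- replicates 2 and 5 (106 and 116 RPKM). It was at 176 to 217 RPKM in the other 11, so the main results are also given without these 2. Thy1 was at 52.2 and 56.9 RPKM in the same 2 libraries, against 172 to 245 RPKM in the other 11. Whether these 2 mice carry the transgenes as labelled was not tested. Markers of neocortex were present in every library (summed level 233 to 271 RPKM and 199 to 244 RPKM). Striatal markers were present as well, at 435 to 924 RPKM in the APPPS1;Apoe-/- group and 333 to 817 RPKM in the APPPS1 group, and 1 of 10 was called higher.

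The promoters of the 2 members that fell, Gpnmb and Igf1, and of Spp1, which did not pass the test, are shown so that the genes can be set side by side. They run from 250 bases before to 50 after the RefSeq start, 5′ to 3′ on the gene's strand, on GRCm38.p6 (mm10). Capitals mark matches to TGANTCA, a pattern that takes in sites of AP-1 factors and reads the same on both strands. N stands for any base, so a match need not be such a site. Also in capitals are matches, on either strand, to GAGGAAG, part of the site bound by the myeloid factor PU.1. A further search, for TCACGTG on either strand, an E-box bound by MITF and its relatives, found nothing in these 3 windows.
Gpnmb (chr6:49036268-49036567, plus strand): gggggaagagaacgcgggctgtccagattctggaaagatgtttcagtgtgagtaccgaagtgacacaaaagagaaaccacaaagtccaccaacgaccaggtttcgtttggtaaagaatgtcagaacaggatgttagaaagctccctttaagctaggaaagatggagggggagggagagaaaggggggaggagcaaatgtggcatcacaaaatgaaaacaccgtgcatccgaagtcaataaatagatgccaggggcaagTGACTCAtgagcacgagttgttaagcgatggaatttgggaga
Igf1 (chr10:87860861-87861160, plus strand): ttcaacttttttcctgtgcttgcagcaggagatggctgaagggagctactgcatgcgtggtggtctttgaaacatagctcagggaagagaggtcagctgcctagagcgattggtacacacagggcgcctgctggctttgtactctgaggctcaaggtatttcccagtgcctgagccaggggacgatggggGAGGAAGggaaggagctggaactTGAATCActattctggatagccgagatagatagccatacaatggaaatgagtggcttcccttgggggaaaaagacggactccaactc
Spp1 (chr5:104434861-104435160, plus strand): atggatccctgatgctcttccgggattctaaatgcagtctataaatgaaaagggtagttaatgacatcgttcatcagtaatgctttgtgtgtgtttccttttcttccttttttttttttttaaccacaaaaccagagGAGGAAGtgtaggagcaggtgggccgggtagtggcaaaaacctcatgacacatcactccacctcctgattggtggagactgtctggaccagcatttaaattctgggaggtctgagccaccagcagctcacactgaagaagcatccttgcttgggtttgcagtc
The Gpnmb window held TGANTCA 1 time, starting 9 bases into the transcribed part. The Igf1 window held TGANTCA and GAGGAAG 1 time each, and the Spp1 window held GAGGAAG 1 time; no matches overlapped. Of all 32851 promoters in the same table, 7.81% held TGANTCA, 13.6% held GAGGAAG and 3.77% held TCACGTG. Of the other members, Plin2 held TCACGTG 1 time, and Lgals3, Plin3 and a further window of Spp1 held none of the 3 motifs. A promoter was matched for 6 of 7 members, and Fabp5 was not matched.

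Loss of Apoe was accompanied by lower Gpnmb and Igf1, while Spp1 and the other members stayed on the uncalled side of the threshold. Of the 7 members, 2 were called lower and 0 higher, against 4.74% of all tested genes lower and 3.48% higher (8.23% in either direction). By limma without adjustment 4 members had p under 0.05, all lower (Gpnmb, Igf1, Lgals3 and Plin2), against 13.4% of all tested genes in that direction at this threshold. Without both low-App libraries the same 2 members were called lower and 0 higher, against 3.3% and 1.78% of all tested genes (5.07% in either direction).

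**Figure D1:**
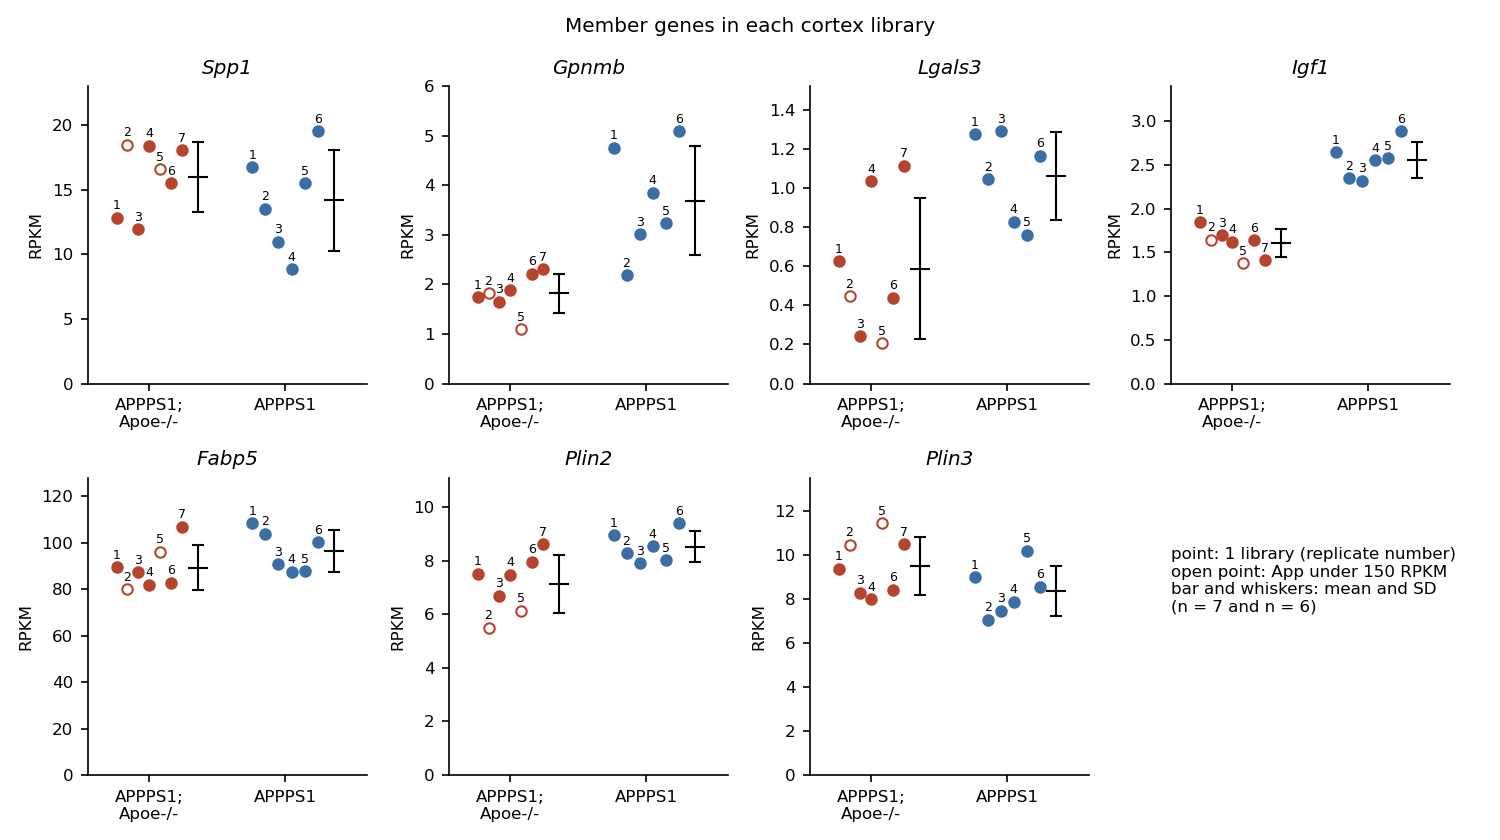
RPKM (vertical axes, from 0) of the 7 genes in each library, APPPS1;Apoe-/- on the left and APPPS1 on the right of each panel; points are libraries with their replicate number, open points the libraries with App under 150 RPKM, and bars and whiskers the mean and SD (n = 7 and n = 6). The groups do not overlap for Igf1 and overlap for the other 6 genes.

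Among the secreted and surface molecules, Spp1 was at 11.9 RPKM in the lowest, 16.6 in the median and 18.5 in the highest APPPS1;Apoe-/- library, and at 8.82, 14.5 and 19.5 RPKM in the APPPS1 libraries. The APPPS1;Apoe-/- values lay wholly inside the range of the APPPS1 values, whose lowest library was replicate 4 and highest replicate 6. The means were 16.0 ± 2.68 RPKM (SD, n = 7) in the APPPS1;Apoe-/- group and 14.2 ± 3.91 RPKM (SD, n = 6) in the APPPS1 group. The log2 change was 0.19 with a 95% interval of -0.14 to 0.52 (limma adjusted p = 0.472), so the interval leaves room for no change and for a rise, and for a fall of at most 0.14. Spp1 was higher than the APPPS1 median in 5 of 7 APPPS1;Apoe-/- libraries. Without both low-App libraries, where Spp1 was 18.5 and 16.6 RPKM (replicates 2 and 5), the change was 0.14 (interval -0.24 to 0.51). It was 0.07 without APPPS1 replicate 4, 0.29 without APPPS1 replicate 6, and 0.10 with alignments as a covariate (0.05 without the low-App libraries as well), with no call in any. Markers of perivascular and meningeal macrophages, which also express Spp1, summed to 5.48 to 9.33 RPKM in the APPPS1;Apoe-/- group and 5.84 to 9.19 RPKM in the APPPS1 group. Of 5 tested markers 1 was called higher, Stab1, and 0 lower; the part of these cells in the level of Spp1 was not tested.

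Gpnmb fell to about the level of the weakest APPPS1 library. It was at 1.09 RPKM in the lowest, 1.82 in the median and 2.32 in the highest APPPS1;Apoe-/- library, and at 2.18, 3.54 and 5.09 RPKM in the APPPS1 libraries. The groups overlapped in a single APPPS1 library, replicate 2, which lay below APPPS1;Apoe-/- replicates 6 and 7. The mean was 1.82 ± 0.401 RPKM (SD, n = 7) in the APPPS1;Apoe-/- group and 3.69 ± 1.10 RPKM (SD, n = 6) in the APPPS1 group, 50.7% lower. The log2 change was -0.83 ± 0.16 (SE, limma adjusted p = 0.00485), and -0.73 ± 0.16 (adjusted p = 0.0165) without both low-App libraries, where Gpnmb was 1.82 and 1.09 RPKM. The call ended when log2 alignments entered as a covariate (-0.86, adjusted p = 0.0559) and with the mean level of the striatal markers as a covariate (-0.65, adjusted p = 0.0705). It held without both low-App libraries and with alignments as a covariate (-0.86, adjusted p = 0.0345).

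Lgals3 was the weakest of the 7 genes, and in the APPPS1;Apoe-/- group the most variable. It was at 0.207 RPKM in the lowest, 0.447 in the median and 1.12 in the highest APPPS1;Apoe-/- library, and at 0.763, 1.11 and 1.29 RPKM in the APPPS1 libraries. In the APPPS1;Apoe-/- group 5 libraries lay below every APPPS1 library, while replicates 4 and 7 lay among the APPPS1 values, at 1.04 and 1.12 RPKM. The spread was 61.6% of the mean in the APPPS1;Apoe-/- group and 21.2% in the APPPS1 group. Taking the longest annotated transcript, these values correspond to roughly 5 to 45 reads per library in the APPPS1;Apoe-/- group and 33 to 141 in the APPPS1 group, so counting error is large. The log2 change of -0.57 ± 0.18 (SE) did not pass the test (limma adjusted p = 0.0619), nor did that of -0.44 without both low-App libraries (adjusted p = 0.186). Its size depended on the pseudocount, at -0.91 with 0.1 and -0.40 with 1, without a call in either, and it was -0.36 without the low-App libraries and with alignments as a covariate. Lgals3 was called when APPPS1;Apoe-/- replicate 4 or replicate 7 was left out (-0.67 and -0.68, adjusted p = 0.0237 and 0.0233).

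Igf1 was the 1 member whose groups did not overlap. It was at 1.38 RPKM in the lowest, 1.64 in the median and 1.84 in the highest APPPS1;Apoe-/- library, and at 2.32, 2.56 and 2.88 RPKM in the APPPS1 libraries. The 7 values without Apoe were all below the 6 with it, a pattern that 2.17% of all tested genes showed in this direction and 1.54% in the other. The mean was 1.604 ± 0.162 RPKM (SD, n = 7) in the APPPS1;Apoe-/- group and 2.55 ± 0.208 RPKM (SD, n = 6) in the APPPS1 group, 37.1% lower. The log2 change was -0.54 ± 0.07 (SE, limma adjusted p = 0.000207) and -0.51 ± 0.07 (adjusted p = 0.000807) without both low-App libraries, where Igf1 was 1.64 and 1.38 RPKM. It passed in all 27 other settings tried, including the alignments covariate (-0.54, adjusted p = 0.00759). Some cortical interneurons express Igf1 as well. Of 6 interneuron markers 0 were called by limma, and they summed to 499 to 687 RPKM in the APPPS1;Apoe-/- group and 477 to 556 RPKM in the APPPS1 group.

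Of the lipid carriers, Fabp5 was the most abundant member per length by a wide margin, at 80.1 RPKM in the lowest, 87.4 in the median and 107 in the highest APPPS1;Apoe-/- library and at 87.4, 95.5 and 108 RPKM in the APPPS1 libraries. The 2 ranges overlapped over most of their length. The means were 89.2 ± 9.52 RPKM (SD, n = 7) in the APPPS1;Apoe-/- group and 96.4 ± 9.004 RPKM (SD, n = 6) in the APPPS1 group. The log2 change of -0.11 (95% interval -0.27 to 0.04, limma adjusted p = 0.365) did not pass, and it was -0.11 without both low-App libraries. Astrocytes also make fatty acid binding proteins, and their markers summed to 1215 to 1427 RPKM in the APPPS1;Apoe-/- group and 1306 to 1446 RPKM in the APPPS1 group, with 3 of 9 called lower; their part in Fabp5 was not tested.

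Neither perilipin passed the test. Plin2, the perilipin most closely tied to stored droplets, was at 5.51 RPKM in the lowest, 7.48 in the median and 8.64 in the highest APPPS1;Apoe-/- library, and at 7.93, 8.42 and 9.42 RPKM in the APPPS1 libraries. Its lowest values, 5.51 and 6.15 RPKM, were those of the low-App replicates 2 and 5, and replicates 6 and 7 lay inside the APPPS1 range. The log2 change of -0.25 ± 0.09 (SE) did not pass (limma adjusted p = 0.0805), and it was -0.15 (adjusted p = 0.222) without the low-App libraries and -0.16 with striatal markers as a covariate. Leaving out replicate 7 alone gave -0.30 and a call (adjusted p = 0.0380).

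Plin3, a perilipin that moves between cytosol and droplets, was at 7.99 RPKM in the lowest, 9.37 in the median and 11.5 in the highest APPPS1;Apoe-/- library, and at 7.05, 8.22 and 10.2 RPKM in the APPPS1 libraries. Here the low-App replicates 2 and 5, at 10.5 and 11.5 RPKM, were among the 3 highest of all libraries. The log2 change was 0.17 (95% interval -0.03 to 0.37, limma adjusted p = 0.269). Without the low-App libraries it was 0.09 (interval -0.11 to 0.29), and -0.0016 when alignments entered as a covariate as well. With alignments alone it was 0.03.

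**Figure D2:**
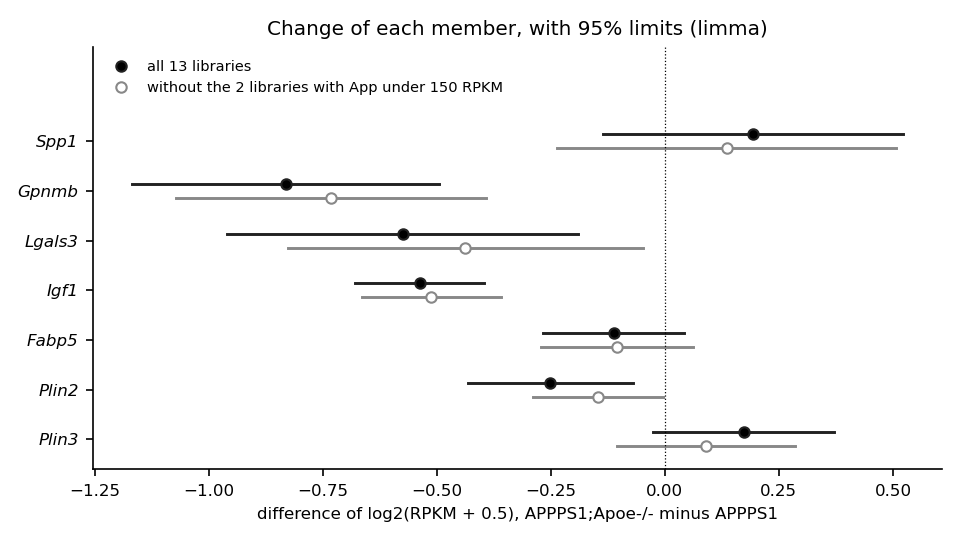
Difference of log2(RPKM + 0.5), APPPS1;Apoe-/- minus APPPS1, for each gene (horizontal axis), with 95% limits from limma, in all 13 libraries (filled) and without the 2 libraries with App under 150 RPKM (open). Gpnmb and Igf1 lie at -0.83 and -0.54, and Spp1 and Plin3 at 0.19 and 0.17 with limits on both sides of 0.

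By level, the members kept their order from Fabp5 down to Lgals3 in the group means of both genotypes except in the middle. Fabp5 was followed by Spp1, whose range overlapped that of Plin3 in the APPPS1 group only, and then by Plin3 and Plin2, whose ranges overlapped within each group: they averaged 9.49 ± 1.33 and 7.14 ± 1.08 RPKM in the APPPS1;Apoe-/- group (SD, n = 7) and 8.36 ± 1.14 and 8.53 ± 0.574 RPKM in the APPPS1 group (SD, n = 6). Gpnmb came next, and its values overlapped those of Igf1 in both groups. Lgals3 was lowest in both.

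Microglial genes as a whole were lower, so each member was also set against them within its library. The summed level of 21 pan-microglia genes ran from 411 to 856 RPKM in the APPPS1;Apoe-/- group and from 977 to 1180 RPKM in the APPPS1 group, with the low-App replicates lowest at 411 and 463 RPKM. Of the 20 tested, 16 were lower and 0 higher (median log2 change -0.59, against -0.0077 over all tested genes), among them the myeloid transcription factor gene Irf8 (-0.89) and Ptprc, which encodes CD45 (-0.75). This count was 15 without both low-App libraries (median -0.36), but 1 with alignments as a covariate, 2 with striatal markers as a covariate and 6 with no filter on low values. In bulk tissue, fewer microglia and less RNA per microglial cell cannot be told apart. For each library the mean log2 level of these 20 genes was subtracted from that of the member, and 13 such ratios, 7 to pan-microglia genes and 6 of Spp1 to the other members, were compared by two-sided exact permutation of the group labels, with p-values adjusted over the 13. A ratio shows unequal change, not which side moved.

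The ratios of Igf1, Gpnmb and Lgals3 to pan-microglia genes did not pass. The ratio of Igf1 differed by 0.05 between the groups (exact p = 0.758), that of Gpnmb by -0.24 (exact p = 0.231) and that of Lgals3 by 0.01 (exact p = 0.950). For Igf1 the 2 low-App libraries lay above all APPPS1 libraries and 3 other APPPS1;Apoe-/- libraries lay below them. With the low-App pair left out these differences were -0.14, -0.36 and -0.06 (exact permutation p = 0.110, 0.102 and 0.792). Because the pan-microglia genes were lower (median log2 change -0.59), a gene that did not change gets a higher ratio too. The share of all tested genes with such a ratio was not computed. Plin3 itself was not called (log2 change 0.17). The ratio of Plin3 was higher in all 7 APPPS1;Apoe-/- libraries than in any APPPS1 library. It ran from -1.09 to 0.20 in the APPPS1;Apoe-/- group and from -1.46 to -1.22 in the APPPS1 group, a difference of 0.76 (exact permutation p = 0.00233, adjusted p = 0.0152), and leaving out the low-App pair gave 0.46 (exact p = 0.00216, the smallest it can give, adjusted p = 0.0281). The ratios of Spp1, Plin2 and Fabp5 were higher by 0.78, 0.34 and 0.48 (exact permutation, adjusted p = 0.0253, 0.0253 and 0.0390). Without both low-App libraries these 3 were 0.51, 0.23 and 0.27, and none passed (adjusted p = 0.0844, 0.0844 and 0.117). The calls of Spp1 and Plin2 also ended without APPPS1 replicate 3, 4 or 5 (0.74, 0.66 and 0.78 for Spp1, 0.33, 0.34 and 0.28 for Plin2). That of Fabp5 ended without those or APPPS1;Apoe-/- replicate 1, 2, 5 or 7 (0.37 to 0.49 over these 7).

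The ratios of Spp1 to Gpnmb and to Igf1 were higher in the APPPS1;Apoe-/- group. Spp1 itself was not called (log2 change 0.19), while Gpnmb and Igf1 were called lower (-0.83 and -0.54). A gene that did not change gets a higher ratio to these 2 genes too. How many of all tested genes have such ratios was not computed. The log2 ratio of Spp1 to Gpnmb ran from 2.53 to 3.42 in the APPPS1;Apoe-/- group and from 1.10 to 2.39 in the APPPS1 group, without overlap. The difference was 1.02 (exact permutation p = 0.000583, the smallest it can give, adjusted p = 0.00758), and 0.87 with the low-App pair left out (exact p = 0.00433, adjusted p = 0.0281). The ratio of Spp1 to Igf1 was 2.96 ± 0.33 in the APPPS1;Apoe-/- group (SD, n = 7) and 2.22 ± 0.35 in the APPPS1 group (SD, n = 6), a difference of 0.73 (exact permutation p = 0.00466, adjusted p = 0.0202). Leaving out both low-App libraries gave 0.65 (exact p = 0.0108, adjusted p = 0.0469). Spp1 to Lgals3 differed by 0.77 (exact permutation, adjusted p = 0.0253), but by 0.57 with no call without both low-App libraries (adjusted p = 0.0844), and the call also ended without APPPS1 replicate 3 or 4 (0.66 and 0.69). The ratios of Spp1 to Plin2 (0.44), Fabp5 (0.31) and Plin3 (0.02) did not pass (exact permutation, adjusted p = 0.0691, 0.152 and 0.950). That to Plin2 passed without APPPS1;Apoe-/- replicate 1 or 3 or APPPS1 replicate 6 (0.51, 0.50 and 0.52).

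**Figure D3:**
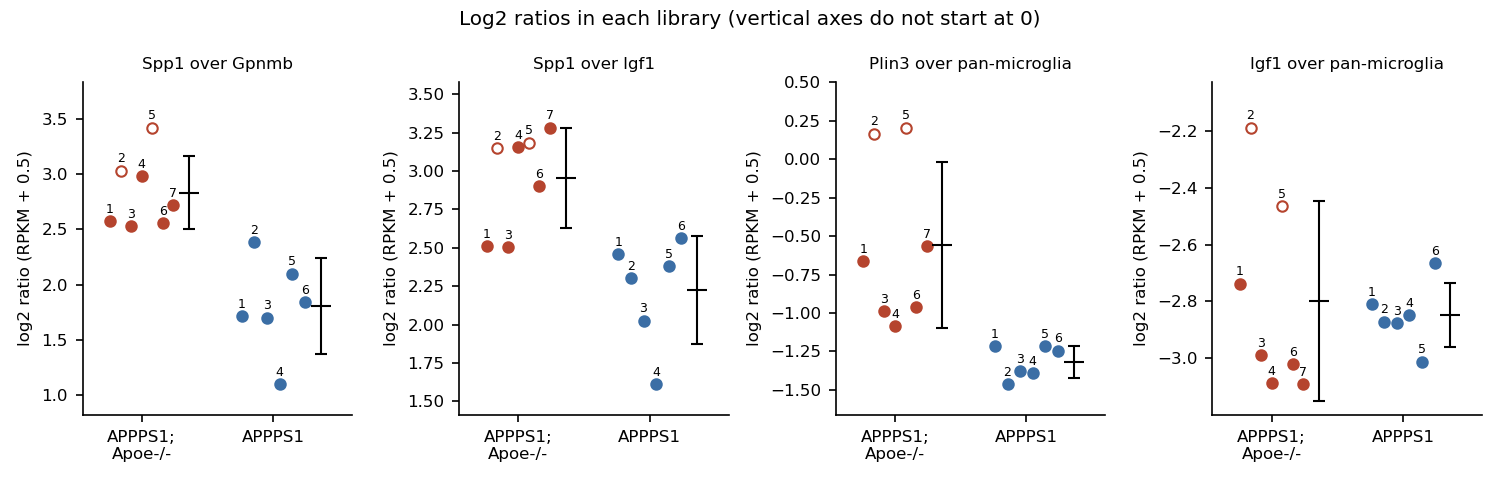
Log2 ratios in each library (vertical axes, which do not start at 0): Spp1 over Gpnmb, Spp1 over Igf1, and Plin3 and Igf1 over the mean of 20 pan-microglia genes, APPPS1;Apoe-/- left and APPPS1 right; points are libraries with replicate numbers, open where App is under 150 RPKM, and bars and whiskers are mean and SD (n = 7 and n = 6). The groups do not overlap for Spp1 over Gpnmb and for Plin3 over pan-microglia.

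Genes that microglia raise at plaques together with these members were nearly all lower. Of 24 tested plaque-associated genes 23 were lower and 0 higher (median log2 change -1.05, and -0.90 without both low-App libraries with 22 lower). With alignments as a covariate 11 were lower. In the fit without a covariate, 4.74% of all tested genes were called lower and 3.48% higher. The glucan receptor gene Clec7a averaged 1.32 ± 0.815 RPKM in the APPPS1;Apoe-/- group and 7.76 ± 0.829 RPKM in the APPPS1 group (SD, n = 7 and n = 6, log2 change -2.35 ± 0.29, SE, limma adjusted p = 0.000207). Its level was 0.149 to 0.256 RPKM in the low-App libraries and 1.35 to 2.18 RPKM in the other APPPS1;Apoe-/- libraries. Without the low-App pair the change of Clec7a was -1.87. The actin-capping gene Capg and the lysosomal protease gene Ctsd fell by 1.39 and 0.86. Itgax, the gene for integrin CD11c, fell by 1.10. It averaged 0.165 RPKM in the APPPS1;Apoe-/- group, under the filter of 0.5 RPKM, and 0.910 RPKM in the APPPS1 group. Itgax was thus tested only through the group where it was higher, which limits what its call shows. The 13 genes of resting, homeostatic microglia included 5 that were lower and 0 that were higher (median -0.29), among them Gpr34, a lysolipid receptor gene (-0.81), and Siglech (-0.51). This count was 3 without APPPS1;Apoe-/- replicate 1 or 5 or APPPS1 replicate 1, 5 or 6, and 0 with either covariate.

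The list of partners of osteopontin, GPNMB and galectin-3, which also holds other galectin genes such as Lgals4, included several lower genes. Of 16 tested, 4 were lower and 0 higher (median log2 change -0.10), against 4.74% and 3.48% of all tested genes. Without APPPS1 replicate 4 or 6 the number lower was 2. The osteopontin and hyaluronan receptor gene Cd44 averaged 0.643 ± 0.185 RPKM in the APPPS1;Apoe-/- group and 1.17 ± 0.193 RPKM in the APPPS1 group (SD, n = 7 and n = 6), and the groups did not overlap (log2 change -0.56, limma adjusted p = 0.00564). Of all tested genes 2.17% showed this pattern in the same direction. Lgals3bp, which encodes a secreted ligand of galectin-3, fell by 0.89, the integrin gene Itgb5 by 0.43 and the galectin gene Lgals4 by 0.46. Itgav, whose integrin binds osteopontin, was at 5.98 ± 0.675 RPKM in the APPPS1;Apoe-/- group and 6.06 ± 0.398 RPKM in the APPPS1 group (log2 change -0.02, limma adjusted p = 0.876). All 4 lower genes were called without both low-App libraries, and none of the 4 with alignments or with striatal markers as a covariate. The call of Lgals4 also ended without APPPS1;Apoe-/- replicate 1 or 7 or APPPS1 replicate 3, 4 or 6 (-0.46 to -0.41). That of Itgb5 ended without APPPS1;Apoe-/- replicate 2 or APPPS1 replicate 1, 4, 5 or 6 (-0.43 to -0.39).

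Of 14 other tested genes of the Igf1 axis, 1 was lower and 0 higher (median log2 change -0.0057, 8 below 0), a share near that of all tested genes. The binding protein gene Igfbp5 averaged 8.40 ± 0.951 RPKM in the APPPS1;Apoe-/- group and 10.3 ± 0.730 RPKM in the APPPS1 group (SD, n = 7 and n = 6, log2 change -0.28, limma adjusted p = 0.0229). It missed the threshold without both low-App libraries (-0.21, adjusted p = 0.0825) and without APPPS1 replicate 4 or 6 (-0.26 in both), and with alignments or striatal markers as a covariate (adjusted p = 0.162 and 0.207). The receptor gene Igf1r was at 3.62 ± 0.295 RPKM in the APPPS1;Apoe-/- group and 3.41 ± 0.205 RPKM in the APPPS1 group and did not pass (log2 change 0.07, adjusted p = 0.461).

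Of 27 tested lipid droplet genes besides Plin2 and Plin3, 0 were lower and 2 higher by limma (median log2 change 0.04, 11 below 0), against 4.74% and 3.48% of all tested genes. An unadjusted p under 0.05 in either direction was found for 10 of them, against 25% of all tested genes. With alignments as a covariate 0 were higher. Plin4, the perilipin gene best known from fat cells and muscle, was at 2.11 ± 1.43 RPKM in the APPPS1;Apoe-/- group and 0.371 ± 0.252 RPKM in the APPPS1 group (SD, n = 7 and n = 6, log2 change 1.47 ± 0.27, SE, limma adjusted p = 0.00404). The APPPS1 mean was under the filter of 0.5 RPKM, so Plin4 was tested only through the group where it was higher, which limits what its call shows. The low-App libraries held 2.97 and 4.91 RPKM, and without them the change was 1.11 (adjusted p = 0.00379). The call ended with alignments as a covariate (1.29, adjusted p = 0.0785) and held when the low-App libraries were also omitted (1.05, adjusted p = 0.0372). Oligodendrocyte markers summed to 959.8 to 1521 RPKM in the APPPS1;Apoe-/- group and 854 to 1201 RPKM in the APPPS1 group, with 3 of 9 called higher, and their part in these levels was not tested. Mgll, the gene for monoacylglycerol lipase, was the other (0.18, adjusted p = 0.0332). Its call ended without both low-App libraries (0.16, adjusted p = 0.109) and without APPPS1;Apoe-/- replicate 2, 5, 6 or 7 or APPPS1 replicate 1, 2, 3 or 6 (0.16 to 0.19). Pnpla2, which encodes the lipase that starts droplet breakdown, and Soat1, which encodes a cholesterol-esterifying enzyme, did not pass (0.35 and -0.14, adjusted p = 0.153 and 0.211). Pnpla2 passed without APPPS1;Apoe-/- replicate 3 (0.46, adjusted p = 0.0328) and with a score of sex-linked genes as a covariate (0.41, adjusted p = 0.0422). A single gene of the list was lower without APPPS1;Apoe-/- replicate 7 or APPPS1 replicate 5.

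Of 13 tested genes of fatty acid uptake and binding, 1 was lower and 1 higher, shares near the 4.74% and 3.48% of all tested genes. Lpl, the gene for lipoprotein lipase, averaged 4.72 ± 0.636 RPKM in the APPPS1;Apoe-/- group and 7.49 ± 1.496 RPKM in the APPPS1 group (SD, n = 7 and n = 6, log2 change -0.60, limma adjusted p = 0.00390). Mfsd2a, a lysolipid transporter gene of brain endothelium, was at 6.07 ± 1.15 RPKM in the APPPS1;Apoe-/- group and 3.76 ± 0.638 RPKM in the APPPS1 group (0.62, adjusted p = 0.00410). Both calls ended with alignments as a covariate (-0.47 for Lpl and 0.498 for Mfsd2a, adjusted p = 0.0906 and 0.0924), also without the low-App libraries (adjusted p = 0.130 and 0.104). The Fabp5 relatives did not pass: Fabp3 was at 161 ± 11.7 and Fabp7 at 54.0 ± 8.16 RPKM in the APPPS1;Apoe-/- group, and they were at 160.0 ± 9.41 and 69.6 ± 33.8 RPKM in the APPPS1 group (adjusted p = 0.939 and 0.582).

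Among 18 tested genes of cholesterol efflux and lysosomal lipid export, 3 were lower and 0 higher (median log2 change -0.03), against 4.74% and 3.48% of all tested genes. Ch25h, the gene for cholesterol 25-hydroxylase, averaged 1.05 ± 0.391 RPKM in the APPPS1;Apoe-/- group and 2.42 ± 0.853 RPKM in the APPPS1 group (SD, n = 7 and n = 6, log2 change -0.90, limma adjusted p = 0.00805). The lysosomal cholesterol carrier gene Npc2 fell by 0.34 and Mylip, which encodes a ligase that degrades the LDL receptor, by 0.33. Mylip missed the threshold without both low-App libraries (-0.25, adjusted p = 0.103) and without APPPS1;Apoe-/- replicate 2 or 5 or APPPS1 replicate 1, 4 or 6 (-0.33 to -0.29). With alignments or striatal markers as a covariate 0 genes of the list were lower, with Ch25h at adjusted p = 0.0670 and 0.101 and Npc2 at 0.123 and 0.108. The cholesterol exporter gene Abca1 was at 1.62 ± 0.402 RPKM in the APPPS1;Apoe-/- group and 1.65 ± 0.238 RPKM in the APPPS1 group and did not pass (adjusted p = 0.880). The list of nuclear receptor and MiT family regulators also holds other transcription factor genes, such as Hif1a. Of 15 tested genes in it, 1 was lower, Hif1a (-0.28, limma adjusted p = 0.0285), and 0 higher. Its call ended without both low-App libraries (-0.23, adjusted p = 0.107) and without APPPS1;Apoe-/- replicate 2, 5 or 7 or APPPS1 replicate 1, 2 or 6 (-0.28 to -0.25), and with either covariate (adjusted p = 0.162 and 0.236). Mitf and Pparg, genes for regulators of lysosomal and lipid genes, did not pass (0.0064 and -0.07, adjusted p = 0.974 and 0.724).

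**Figure D4:**
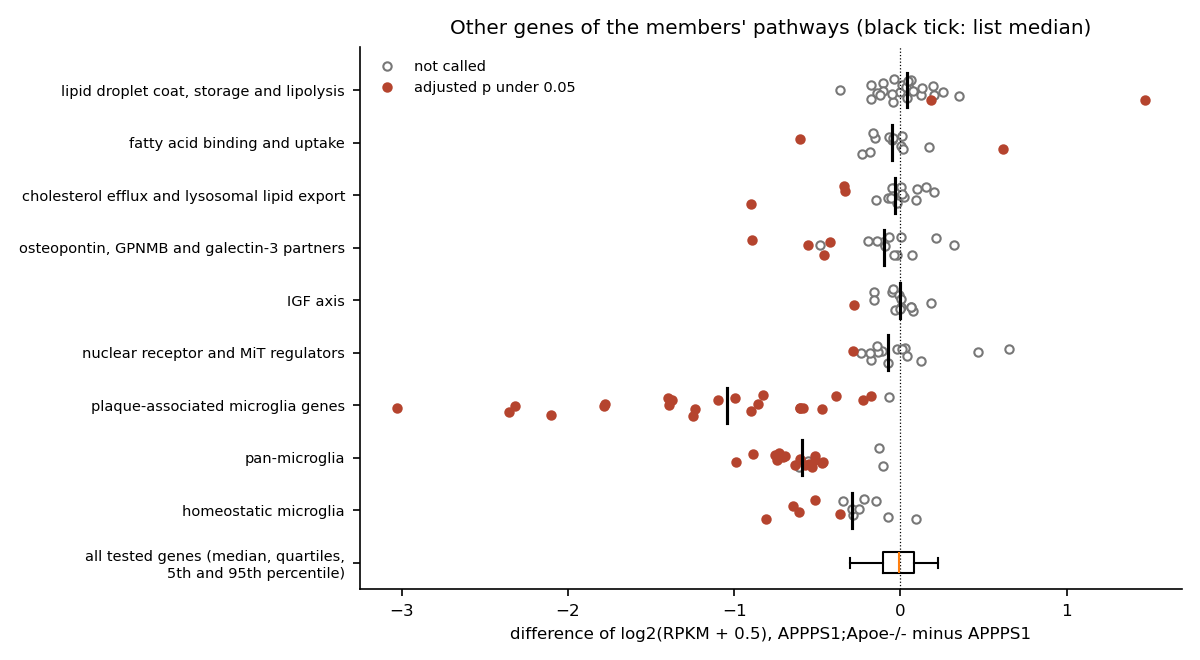
Difference of log2(RPKM + 0.5), APPPS1;Apoe-/- minus APPPS1 (horizontal axis), of every tested gene of 9 lists, the 7 members left out; filled points passed the test, open points did not, black ticks are list medians, and the box shows the median, quartiles and 5th and 95th percentiles of all 13343 tested genes. The plaque-associated list has a median of -1.05 and the lipid droplet list one of 0.04.

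The genes whose variation between libraries of 1 group was most like that of each member were sought among about 11802 other genes averaging 1 RPKM or more, over the 11 libraries with App of at least 150 RPKM. Likeness was measured by the correlation of log2 levels after the group mean was subtracted; the leading genes are the extremes of a long list over few libraries that share their depth and dissection, so the values are a description. For Spp1 they were Gng5, Kat2b and Nupr1 (0.93, 0.92 and 0.92), and the value of Nupr1 was 0.89 over all 13 libraries. For Gpnmb they were Ypel4, Wisp1 and Blnk (0.93, 0.90 and 0.89), of which Blnk, an adaptor gene of myeloid and B cells, was itself lower (log2 change -0.47, limma adjusted p = 0.0215). For Lgals3 they were Tmem205, Faim and Ndufb7 (0.94, 0.93 and 0.93). For Igf1 they were Reln, Deptor and Chd1 (0.91, 0.89 and 0.87), and the value of Reln, a gene expressed by interneurons, was 0.89 over all 13 libraries. For Fabp5 they were Krtcap2, Nop10 and Atp5g2 (0.96, 0.95 and 0.94), for Plin2 Rab26, Dnajc24 and Akr1b10 (0.94, 0.89 and 0.88), and for Plin3 Polr2a, Vps36 and Ttll12 (0.90, 0.89 and 0.89). Over all 13 libraries the values of these leading genes ran from 0.26 (Ypel4) to 0.95 (Nop10). Rab26, Ndufb7 and Vps36 were at 0.36, 0.38 and 0.39 there. No member was among the 3 leading genes of another member, though Lgals3, which averaged less than 1 RPKM, was not eligible.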

How the data were processed

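Per the labels' protocols, the cortex was frozen on dry ice and its RNA isolated with Trizol, and libraries were of the Clontech SMARTer type. The authors deposited RPKM per gene in 1 table, beside each library's deposited count of alignments. Software named in the submitters' processing notes is Partek and the build mm10. RPKM hides how many reads lie behind a value. Which aligner, counting rule and strand setting applied is not given in the sources used here. The genotype in the table matched the labels in 13 of 13 libraries. No pair of libraries was identical (pairwise correlation 0.981 to 0.994).

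After transformation to log2(RPKM + 0.5), genes averaging 0.5 RPKM or more (13343) were compared by limma (version 3.58.1, R 4.3.3, lmFit, eBayes with a mean-variance trend, two-sided, genotype the only term) and adjusted by Benjamini-Hochberg over all of them. Ratios were tested by exact permutation over 1716 splits, or 462 without the low-App libraries. On data simulated for this comparison, with 200 of 13343 genes changed, the share called was 85% at a log2 change of 0.5 and 100% at 1 and 2, and 8 unchanged genes were called. The simulated noise was normal, independent between genes and libraries, and of the same SD in both groups. It held no counterpart of the low-App pair or of the depth difference, so these shares need not apply to the real data. Approximate reads are RPKM times alignments times the longest transcript in GENCODE release M21. Promoters come from RefSeq. Tables and figures were made in Python 3.11.15 (pandas 2.3.3, matplotlib 3.10.9).

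The members and lists were chosen with earlier results of these data known. The text may name the members, Apoe, App and Thy1, from each list up to 4 called genes of lowest adjusted p, the genes Cd44, Itgav, Igf1r, Igfbp5, Fabp3, Fabp7, Pnpla2, Lpl, Abca1, Soat1, Mitf and Pparg whatever their result, and the 3 genes most like each member. Stab1 was named after its value was seen. Lpl, Ch25h, Insr and Mmp12 stand in more than 1 list. Tried besides were 14 other settings of pseudocount, filter, scaling, variance model, covariates and libraries, and leaving out each of the 13 libraries. A called gene that the naming rule allows is not reported here.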

Additional observations from a re-analysis of the deposited data

How the results depend on the processing

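No paired analysis was possible because the labels give mouse names and no replicate numbers shared between the genotypes. Of 27 other settings, Igf1 was called in all 27 and Gpnmb in 25. With alignments as a covariate, Gpnmb changed by -0.86 without a call, 132 genes were lower and 70 higher, and 1 member was lower. With striatal markers as a covariate these values were -0.65, 181, 118 and 1. Leaving out both low-App libraries gave 237 higher genes, and with alignments as well 197 lower and 84 higher, with Plin3 at -0.0016. Quantile normalisation gave 608 lower and 687 higher genes, against 633 and 465. Array weights gave Lgals3 a call at -0.575. At a minimum of 1 RPKM Lgals3, Itgax and Cd44 were not tested. The cause of these shifts was not tested.

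Without the low-App libraries the ratios to pan-microglia genes were 0.51 for Spp1, 0.27 for Fabp5, 0.23 for Plin2, -0.063 for Lgals3 and -0.14 for Igf1, and Spp1 over Lgals3 was 0.57. A pseudocount of 0.1 gave -0.28 for Lgals3 and -0.015 for Igf1. Leaving out 1 library at a time, Lgals3 ranged from -0.68 to -0.48, Plin2 from -0.30 to -0.20, members lower from 2 to 4 (3 without APPPS1;Apoe-/- replicate 4, 4 without replicate 7), lower genes from 435 to 853 and higher genes from 276 to 741 (276 without APPPS1 replicate 6, 290 without replicate 2, 741 without APPPS1;Apoe-/- replicate 4). Ratios to pan-microglia genes ranged from 0.65 to 0.89 for Spp1, 0.37 to 0.55 for Fabp5, 0.28 to 0.39 for Plin2, -0.081 to 0.14 for Lgals3 and -0.051 to 0.099 for Igf1. Spp1 ranged from 0.66 to 0.86 over Lgals3, 0.32 to 0.52 over Plin2 and -0.087 to 0.11 over Plin3.

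Signs turned for 6 uncalled context genes. Fabp3 was -0.0093 with quantile normalisation, -0.0035 with array weights, -0.013 without the low-App libraries, -0.032 with alignments, -0.027 with both and -0.016 with striatal markers. Abca1 was 0.018, 0.066, 0.061, 0.078 and 0.10 in the same order, array weights left out. Itgav was 0.0013 with quantile normalisation and 0.0064 with striatal markers, where Fabp7 was 0.049 and Pparg 0.020. Leaving out 1 library gave -0.015 to 0.036 for Fabp3, -0.092 to 0.036 for Abca1, -0.058 to 0.016 for Itgav and -0.029 to 0.059 for Mitf. Of 25 called context genes, 21 stayed called without the low-App libraries, 5 with alignments and 9 with striatal markers. Depth limits Lgals3 most, at 5 to 45 approximate reads in the APPPS1;Apoe-/- group.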
